A study of Macaca fascicularis with 80 samples.

Results

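Whole blood taken on day 10 was compared with undosed blood of the same animals on day 0, in 16 of the 80 libraries of a study in cynomolgus macaques (Macaca fascicularis). The libraries were chosen by the day in their names, 8 of day 10 and 8 of day 0, and were paired by animal number. The 8 animals were 4 females and 4 males. The labels state neither strain nor age. The day 0 samples carry the label Control and a dose of 0 µg/kg. By day 10 every animal had received IL-15/IL-15Ra, the cytokine interleukin 15 bound to its receptor alpha chain, in doses of 5, 10 and 15 µg/kg given on days 0, 3 and 7. Day 10 therefore lies 72 h after the third dose, if sampling is counted from the day of dosing. There was no arm of undosed animals bled on day 10, so dosing, elapsed time and repeated bleeding cannot be told apart.

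Interleukin 15 is presented to responding cells on its alpha receptor chain and acts through the beta chain shared with the interleukin 2 receptor and the common gamma chain. The signal runs through the kinases JAK1 and JAK3 to the transcription factor STAT5. Natural killer cells and memory CD8 T cells depend on it for survival and division, and in blood the cytokine is known for moving these cells out of the circulation soon after a dose and expanding them afterwards. Whole-blood RNA mixes all of these cells with neutrophils, monocytes, platelets and reticulocytes. In such bulk samples fewer cells of a type and less RNA per cell cannot be told apart.

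The files give gene identifiers with no names, and 0 of the 38550 identifiers were found in the gene table used for names. Markers of blood cell types and genes of the interleukin 15 pathway were therefore not examined, and the labelled tissue was not checked against markers. The results describe gene groups by direction, size, level and course, with 4 identifiers as examples.

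Day 0 libraries held 21.5 to 30.3 M counts (M, mega; median 21.9 M) and day 10 libraries 20.3 to 80.2 M (median 48.2 M). The names of 5 day 10 libraries carry the run tag that all day 0 libraries share. Those 5, from the 4 females and male 39100, held 35.7 to 80.2 M counts. The other 3, from males 39102, 39103 and 39104, carry another run tag and held 20.3 to 26 M. Run, depth and sex thus changed together on day 10. Counts of genes called between day 10 and days 0, 3 and 7 are also given without the 3 males. Level classes, shares, courses and steps were not recomputed without all 3.

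Blood on day 10 differed from day 0 in 3546 genes, or 22.1% of the 16054 tested (edgeR's quasi-likelihood test with animal as a block, Benjamini-Hochberg adjusted p under 0.05, here "called"). Of these, 2025 were higher on day 10 (12.6%) and 1521 lower (9.47%). Most changes were small. The median log2 fold change was 0.52 among genes called higher (quartiles 0.37 and 0.82) and -0.52 among genes called lower (quartiles -0.95 and -0.36), against 0.00 over all genes tested. More than 2-fold changes were seen in 703 called genes (4.38%), 356 higher and 347 lower. Beyond 4-fold, 93 genes were higher and 130 lower. Fitted changes reached 7.73 upward and -5.12 downward on the log2 scale. Those extremes belong to genes of low level.

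Agreement among animals is part of what the test asks of a called gene, so its count is a description. Of the genes called higher, 1307 were higher on day 10 in 8 of 8 animals and 621 in 7 of 8. Of those called lower, 976 were lower in 8 of 8 and 470 in 7 of 8. Over all genes tested, 2524 (15.7%) moved in 1 direction in all 8 animals, 1409 upward and 1115 downward.

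**Figure D1:**
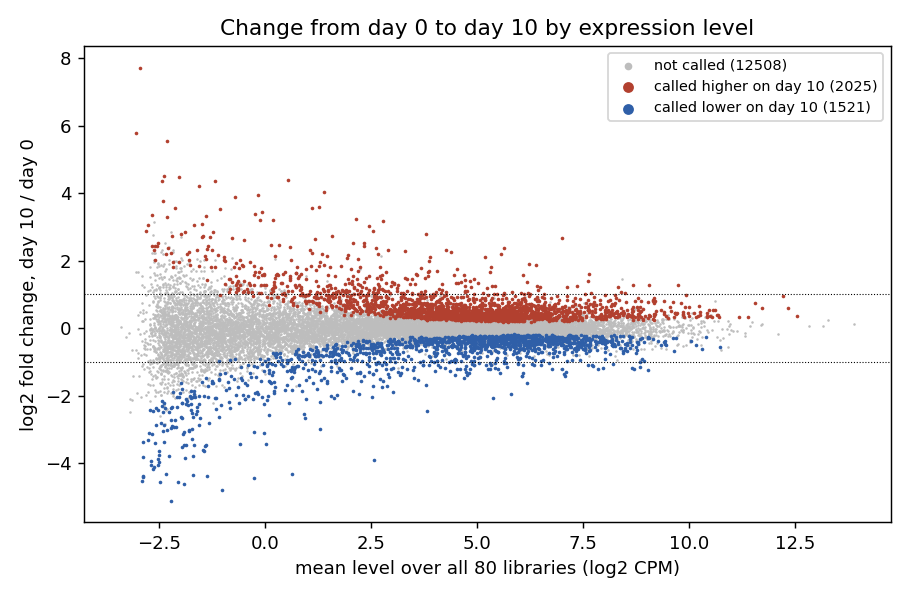
Log2 fold change from day 0 to day 10 (y axis) against mean level over all 80 libraries in log2 CPM (x axis), 1 point per gene tested, with 2025 genes called higher in red, 1521 called lower in blue and the rest in grey; dotted lines mark 2-fold. Called genes of high level lie close to the line of no change, while changes beyond 4-fold lie mainly at low levels.

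Calls were spread unevenly over expression levels. Levels are counts scaled to library size, on a log2 scale (log2 CPM). They were not divided by gene length and were used to sort the genes into 4 classes of equal size by their mean over all 80 libraries. In the highest class, 1304 of 4014 genes were called (32.5%), 696 higher and 608 lower. Only 61 of these changes exceeded 2-fold, 30 upward and 31 downward. In the class below it 739 genes were called higher and 401 lower, so that 64.8% of calls were increases. In the lowest class 317 of 4014 genes were called (7.9%). The balance there lay the other way, with 129 higher and 188 lower (40.7% increases), and 122 and 176 of these exceeded 2-fold. In this lowest class the median size of a called change was 2.06 on the log2 scale, against 0.42 in the highest class. The standard error of a change had a median of 0.537 in the lowest class and 0.0909 in the highest, so changes of rare transcripts were measured less precisely. They had to be larger to be called, so the sizes of called changes do not show that rare transcripts responded more strongly. How much of the lower precision came from depth and how much from variation between animals was not tested. The balance of directions by class was counted with trimmed-mean (TMM) scaling only. Over all genes tested it was 1339 higher and 1543 lower with library totals, and 1727 and 1756 with upper-quartile factors.

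The called genes also took a different share of the library. Genes called higher held 13.5% to 19.9% of all counts on day 0 (mean 15.9% ± 2.08, SD, n = 8) and 16.9% to 26.4% on day 10 (22.5% ± 2.91), a gain in 8 of 8 animals. Genes called lower held 12.8% to 14.9% on day 0 (14.0% ± 0.768) and 8.01% to 10.2% on day 10 (9.60% ± 0.781), so the ranges of the latter did not overlap. These shares describe genes that were chosen on the same libraries and carry no test.

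The 10 most abundant genes of the series, chosen over all 80 libraries, took 6.45% ± 0.741 of counts on day 0 and 7.69% ± 1.66 on day 10 (SD, n = 8). The share was higher on day 10 in 7 of 8 animals, by 1.24 percentage points (exact two-sided sign-flip permutation test, p = 0.0156, adjusted p = 0.026 over 5 measures). Animal 39103 had 6.20% on day 0 and 6.19% on day 10. With every library thinned to 17.09 M counts, 14975 ± 199 genes reached 5 counts on day 0 and 14730 ± 234 on day 10. This was lower in 7 of 8 animals but missed the threshold (exact permutation p = 0.0469, adjusted p = 0.0586). Without thinning, 15553 ± 338 and 16279 ± 1129 genes did so.

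ENSMFAG00000030889 was the first of the 2 identifiers that rose the most under the naming rule, which asked for a call, a mean of at least 2 log2 CPM and 1 direction in all 8 animals. On day 0 its level was 0.85 in animal 39090, 2.29 in 39095, -0.59 in 39097, 0.56 in 39098, -0.74 in 39100, 1.33 in 39102, 0.93 in 39103 and -1.22 in 39104 (log2 CPM). On day 10 it was 3.75, 4.54, 4.41, 4.34, 1.91, 3.96, 2.90 and 3.84 in the same order. Every animal was higher on day 10, and male 39100 was the only one whose day 10 level lay inside the day 0 range. The log2 fold change was 3.25 (SE 0.35, edgeR adjusted p = 0.00024), or 9.50-fold.

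ENSMFAG00000001064 had a wide range in both groups. Its levels on day 0 ran from -0.77 in animal 39097 to 4.02 in 39095 (median 0.78 log2 CPM) and on day 10 from 1.34 in 39100 to 6.26 in 39097 (median 4.76). The groups overlapped, and the change within an animal ran from 0.48 in 39100 to 7.03 in 39097. The log2 fold change was 3.17 (SE 0.56, edgeR adjusted p = 0.0024, higher in 8 of 8 animals).

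ENSMFAG00000020302 had the largest fall under the rule. On day 0 its level was 5.66 in animal 39090, 4.31 in 39095, 1.76 in 39097, 6.74 in 39098, 5.12 in 39100, 6.01 in 39102, 4.93 in 39103 and 3.73 in 39104 (log2 CPM). On day 10 it was 3.04, 1.04, -2.13, 3.03, 0.65, 1.57, 0.61 and -0.83 in the same order. Animal 39097 was lowest on both days, and 39090 and 39098 were among the 3 highest on both. The gene fell by 3.92 on the log2 scale (SE 0.23, edgeR adjusted p = 2.1e-05), or 15.1-fold, with changes of -4.56 to -2.61 among animals.

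ENSMFAG00000041365 ran from 2.99 to 8.04 log2 CPM on day 0 (median 4.84) and from 1.10 to 5.02 on day 10 (median 2.37). Male 39100 was highest on both days. The gene fell by 2.46 on the log2 scale (SE 0.20, edgeR adjusted p = 7.3e-05, lower in 8 of 8 animals). Since the 4 identifiers were chosen for these changes, their values illustrate the size of the response and are not further evidence of it. All 4 calls held in all 21 other fits, at an adjusted p of at most 0.042, which include the 3 males of the other run tag alone and the 5 animals of the shared run alone.

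**Figure D2:**
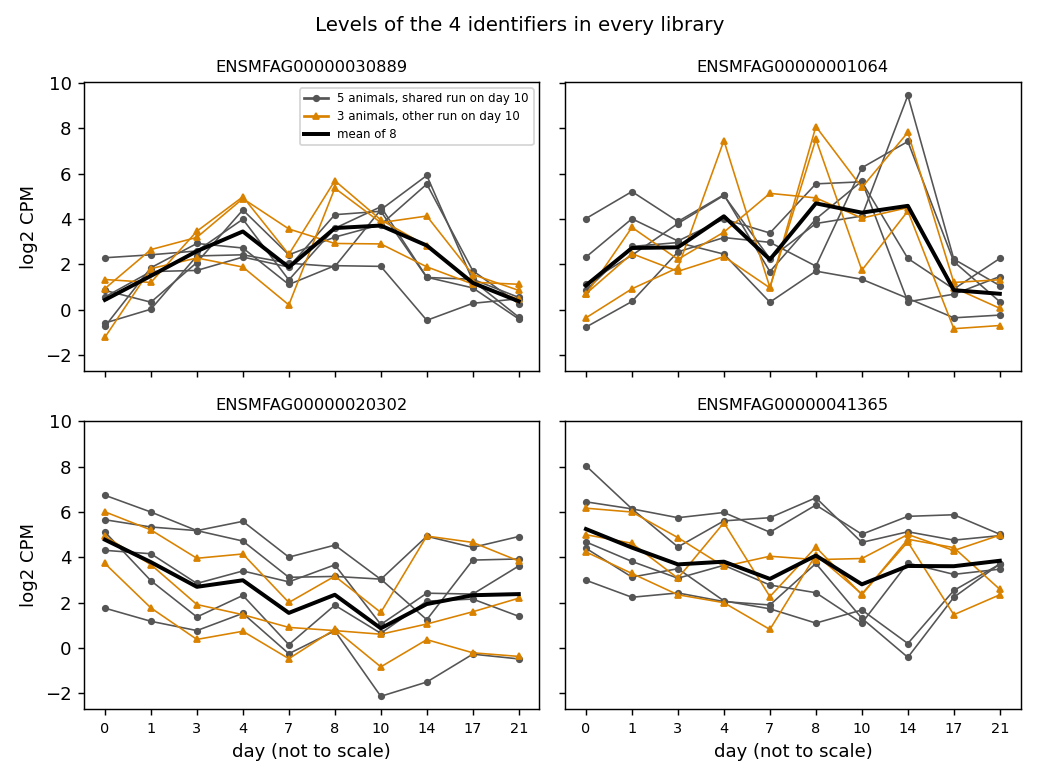
Level of the 4 identifiers (y axis, log2 CPM) on the 10 sampling days (x axis, not to scale), 1 line per animal, with the 3 animals whose day 10 library has the other run tag in orange and the mean of 8 in black. In every animal the upper pair is higher on day 10 than on day 0, and the lower pair is below day 0. On day 21 the means of the upper pair are back near day 0, while those of the lower pair are still below it.

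The 2 directions differed in what followed day 10 for these identifiers. On day 21 the mean log2 difference from day 0 was -0.05 ± 1.40 for ENSMFAG00000030889 and -0.37 ± 1.12 for ENSMFAG00000001064 (SD, n = 8). It was -2.40 ± 1.11 for ENSMFAG00000020302, lower in 8 of 8 animals, and -1.40 ± 1.13 for ENSMFAG00000041365, lower in 7 of 8. Among all genes called on day 10 both directions still lay off day 0 on day 21, as given below for the whole groups, so the return of the rising pair is not shared by the group mean. All of these differences use the day 0 libraries that also chose the genes.

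The size of the response was then compared among animals. For this, genes were called without an animal and measured in it. The genes called higher in the other 7 animals (1530 to 1869 genes) were above day 0 in each animal left out, by a mean log2 difference of 0.65 in 39090, 0.74 in 39095, 0.68 in 39097, 0.76 in 39098, 0.65 in 39100, 0.58 in 39102, 0.40 in 39103 and 0.56 in 39104. The 3 males of the other run tag were the lowest, and male 39100 of the shared run stood with the females. The genes called lower in the other 7 (1115 to 1460 genes) were below day 0 by -0.74, -0.80, -0.56, -0.77, -0.74, -0.62, -0.54 and -0.61 in the same order. Here female 39097 stood with the 3 males. Of the genes called higher in the others, 79.9% were above day 0 in 39103 and 95.6% in 39090, where 50.1% and 52% of all genes were. Of those called lower, the share below day 0 ran from 77% in 39097 to 95.2% in 39090.

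**Figure D3:**
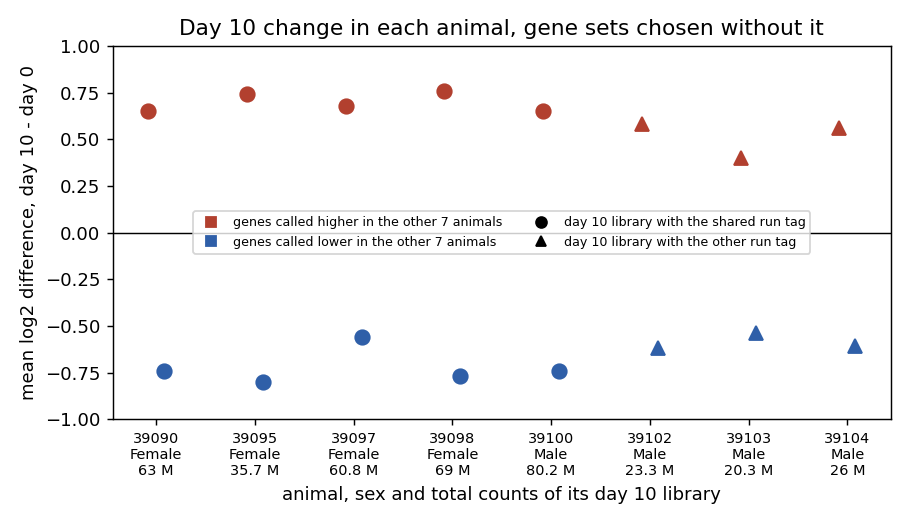
Mean log2 difference between day 10 and day 0 (y axis) in each animal (x axis, with its sex and the total counts of its day 10 library) for genes called higher (red) or lower (blue) in the other 7 animals; circles mark day 10 libraries with the shared run tag and triangles those with the other. Red points lie between 0.40 and 0.76 and blue points between -0.80 and -0.54, with the 3 triangles lowest among the red.

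Differences by sex and by run tag were tested directly. The change from day 0 to day 10 was set against sex first. No gene was called by edgeR (0.0%; 516 had an unadjusted p under 0.05) or limma voom, and 1 was by DESeq2. Between the 3 animals of the other run tag and the rest edgeR also called 0 genes (smallest adjusted p 0.065; 1244 had an unadjusted p under 0.05), DESeq2 36 and limma voom 16. The edgeR count was 15 without animal 39097 and 8 without 39102. With 4 against 4 and 3 against 5 animals, smaller differences may have been missed. The 3 animals of the other run tag were all males, and 39100 was the only male of the shared run. The tests therefore overlap and cannot tell sex from run tag.

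Within the 5 animals of the shared run 2384 genes were called, 1443 higher and 941 lower. The 1443 genes were above day 0 by a mean of 0.86 in those 5 animals and by 0.36 to 0.68 in the 3 males that did not choose them. In the mean of the 3 males 93.9% of these genes were above day 0, against 49.4% of all genes. The 941 were below day 0 by -0.99 in the 5 and by -0.67 to -0.53 in the 3, where 91.5% lay below (50.5% of all genes). Within the 3 males alone 230 genes were called, 137 higher and 93 lower. In the 5 other animals 89.8% of the 137 were above day 0 (51.4% of all genes) and 100% of the 93 below it (48.6% of all genes). In each case the animals that chose the genes had the larger mean. With the run tag as a term beside the animal block 2733 genes were called, 1585 higher and 1148 lower. That term takes up the change of the 3 males, so the change tested is that of the 5 animals of the shared run. Its median over all genes was 0.0125, against 0.0126 in the fit of those 5 animals alone. The count therefore restates the result of the 5 animals and is no separate check on run tag.

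Depth moved with the run tag. With all libraries thinned to 17.09 M counts the comparison called 3392 genes, 1885 higher and 1507 lower. Among the 4 animals with no library over 40 M counts, which are 39095 and the 3 males of the other run, 544 were called. The number of animals was also smaller there. Without the animal block the count was 1987, with 1195 higher and 792 lower. With library totals in place of trimmed-mean (TMM) scaling it was 2882, with 1339 higher and 1543 lower, and with upper-quartile factors it was 3483, with 1727 higher and 1756 lower. Library totals moved the median log2 change of all genes to -0.042.

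Day 3 lies 72 h after the first dose of 5 µg/kg if its samples were taken before the second, as they are read here for every value that uses day 3. Day 10 was compared with it directly to ask whether the samples taken 72 h after the first and after the third dose differed. They did so in 169 genes (1.05% of those tested). On day 10, 95 of these were higher (0.592%) and 74 lower (0.461%), and 77 differed by more than 2-fold (0.48%). The balance of directions depended on scaling, with 45 higher and 67 lower under library totals and 81 and 81 under upper-quartile factors, and was 121 and 129 in one fit over all 80 libraries. ENSMFAG00000020302 was lower on day 10 by -1.90 (SE 0.23, edgeR adjusted p = 0.0035). ENSMFAG00000041365 and ENSMFAG00000030889 differed by -0.88 and 1.16 (SE 0.23 and 0.37) and missed the threshold (edgeR adjusted p = 0.091 and 0.16), as did ENSMFAG00000001064 at 1.62 (SE 0.57, adjusted p = 0.2). Their choice used the same day 10 libraries. The count fell with single animals, to 39 without 39097, 41 without 39102, 50 without 39095, 69 without 39098, 86 without 39104 and 87 without 39100, and rose to 255 without 39103. Within the 5 animals of the shared run it was 116, and DESeq2 gave 953. Dose, number of doses and elapsed time differ together between these days.

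Day 7, read as taken before the third dose, gave the fewest calls of the 4 days when all 8 animals were fitted with edgeR. This order did not hold within the shared run and library tags, where day 7 gave 189 calls in 4 animals and day 3 gave 116 in 5. No gene was called between them by edgeR (0.0%; smallest adjusted p 0.3; 1663 had an unadjusted p under 0.05), and DESeq2 called 139 and limma voom 23. Without the low-count filter edgeR called 131 genes, 121 of them higher on day 10. Among the 4 animals whose libraries of both days carry the shared run and library tags 169 of the 189 genes were higher on day 10 and 20 lower, and without animal 39103 edgeR called 62, 53 higher and 9 lower. Without animal 39097 it called 1. Among the identifiers, ENSMFAG00000001064 was 2.18 higher on day 10 than on day 7 (SE 0.55, adjusted p = 0.3) and ENSMFAG00000030889 was 1.85 higher (SE 0.40, adjusted p = 0.3), while ENSMFAG00000020302 and ENSMFAG00000041365 differed by -0.69 and -0.29 (SE 0.27 and 0.26, edgeR adjusted p = 0.42 and 0.71).

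Day 14, 4 days later and with no dose in between, gave 302 calls against day 10 (1.88%), of which 159 were higher on day 10 (0.99%) and 143 lower (0.891%), 139 of them by more than 2-fold (0.866%). All 8 animals changed run tag between these days, 5 in one direction and 3 in the other. With run tag as a term 508 genes were called, 204 higher and 304 lower. Single animals moved the count, to 32 without 39102, 48 without 39100, 72 without 39090, 77 without 39098, 123 without 39104, 134 without 39103 and 696 without 39097. Among the 4 animals with no library over 40 M counts it was 0 by edgeR (1944 had an unadjusted p under 0.05). With library totals 530 were higher on day 10 and 113 lower, with a shift of 0.26 in the median of all genes. None of the 4 identifiers was called (edgeR adjusted p 0.15 to 0.78).

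**Figure D4:**
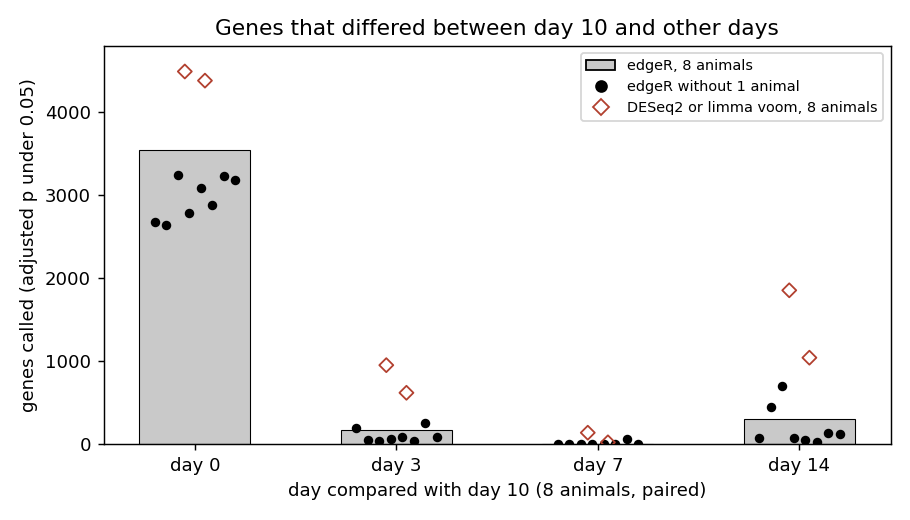
Number of genes called between day 10 and each of 4 other days (y axis, adjusted p under 0.05; x axis, the other day), with edgeR on 8 animals as bars, edgeR without 1 animal as black points and DESeq2 or limma voom as open diamonds. Bars stand at 3546 for day 0, 169 for day 3, 0 for day 7 and 302 for day 14, and the points show how far single animals move the smaller counts.

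The genes called on day 10 were followed over all days. Their mean log2 difference from day 0 was smallest on day 1 and largest on day 10, and was smaller on days 4 and 8 than on the sampling day before. For the genes called higher it was 0.08 ± 0.07, 0.37 ± 0.13, 0.34 ± 0.10, 0.48 ± 0.12, 0.39 ± 0.12 and 0.68 ± 0.09 on days 1, 3, 4, 7, 8 and 10 (SD, n = 8). It then stood at 0.56 ± 0.12, 0.34 ± 0.11 and 0.29 ± 0.12 on days 14, 17 and 21, above day 0 in 8 of 8 animals each time. For the genes called lower it was -0.17 ± 0.12, -0.43 ± 0.13, -0.42 ± 0.09, -0.57 ± 0.09, -0.43 ± 0.12 and -0.74 ± 0.07 up to day 10, and -0.65 ± 0.17, -0.54 ± 0.12 and -0.53 ± 0.08 afterwards. Both groups were nearest to day 0 on day 1 and farthest from it on day 10, the day that chose them. These values share the day 0 libraries with that choice and are a description.

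**Figure D5:**
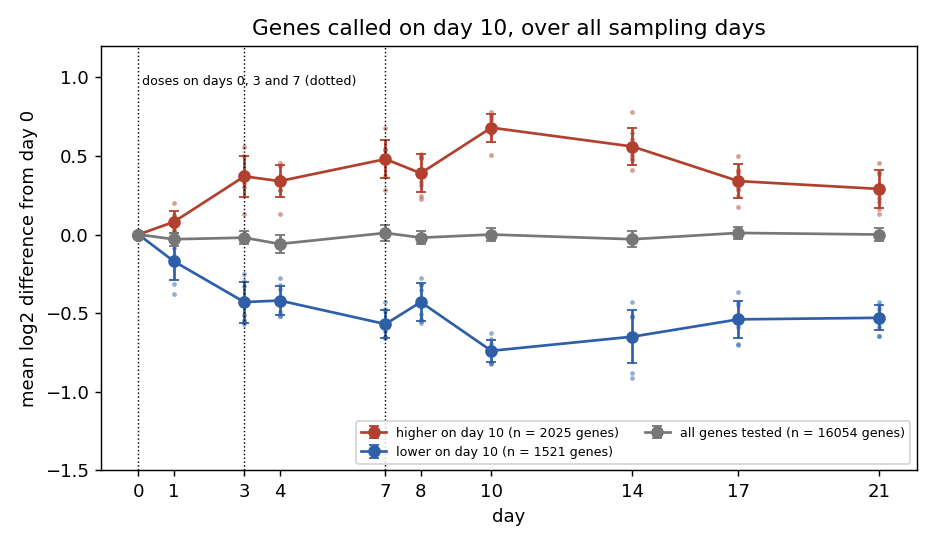
Mean log2 difference from day 0 (y axis) on each sampling day (x axis) for the 2025 genes called higher on day 10 (red), the 1521 called lower (blue) and all 16054 genes tested (grey); large points and bars are means and SD of 8 animals, small points single animals, dotted lines doses. Both means lie farther from day 0 on day 3 than on day 1 and farthest out on day 10, and the blue mean is nearer to day 0 on day 8 (-0.43) than on day 7 (-0.57).

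Steps between days that use no library of day 0 or day 10 allowed a test, although the same animals gave all samples. From day 1 to day 3 the genes called higher on day 10 rose by a mean of 0.29 ± 0.16 (SD, n = 8) in 8 of 8 animals, and the genes called lower fell by -0.26 ± 0.12 in 8 of 8 (exact sign-flip permutation test, adjusted p = 0.0156 for both over 12 tests). From day 4 to day 7 they changed by 0.14 ± 0.12 and -0.15 ± 0.05 (exact adjusted p = 0.0156 for both). The first of these missed the threshold relative to the mean of all genes, at 0.07 ± 0.13 (exact adjusted p = 0.229), and without animal 39095, 39100 or 39102 (0.14, 0.10 and 0.14, exact adjusted p = 0.211, 0.258 and 0.107). The second missed it without 39100 (-0.12, exact adjusted p = 0.075). With library totals it was 0.03 ± 0.31, of the opposite sign (exact adjusted p = 0.844). Genes were called anew for each set without an animal.

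In the 24 h after the third dose, from day 7 to day 8, the genes called lower on day 10 rose by 0.14 ± 0.06 in 8 of 8 animals (exact adjusted p = 0.0156). With upper-quartile factors the rise was 0.07 ± 0.07 in 7 of 8 and missed the threshold (exact adjusted p = 0.0521), and with library totals the change was -0.21 (exact adjusted p = 0.0804). From day 7 to 8 the genes called higher changed by -0.09 ± 0.09 (exact adjusted p = 0.0804). The 24 h after the second dose run from day 3 to day 4. The genes called higher then changed by -0.04 ± 0.05 and those called lower by 0.01 ± 0.11 (exact adjusted p = 0.146 and 0.784). From day 14 to day 17 the genes called higher fell by -0.22 ± 0.11 in 8 of 8 animals (exact adjusted p = 0.0156), while those called lower changed by 0.11 ± 0.20 (exact adjusted p = 0.206). With library totals these changes were 0.14 and 0.46 (exact adjusted p = 0.159 and 0.0234). On day 14, 5 of 8 libraries carried the other run tag, and on day 17 all 8 carried the shared one. Time and run tag cannot be told apart for this step in those 5 animals. Males 39102, 39103 and 39104 carried the shared tag on both days. In them the genes called higher lay 0.49, 0.47 and 0.61 above day 0 on day 14, and 0.29, 0.30 and 0.39 on day 17. The genes called lower lay at -0.43, -0.52 and -0.53, and then at -0.37, -0.43 and -0.69. Between days 17 and 21 neither group passed the test. The mean was -0.05 ± 0.08 for genes called higher and 0.00 ± 0.09 for those called lower (exact adjusted p = 0.141 and 0.875).

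Scaling weighed on these steps, since library totals shifted the mean of all genes by 0.24 from day 4 to 7, by -0.37 from day 7 to 8 and by 0.37 from day 14 to 17. Relative to the mean of all genes a library's scaling factor cancels, apart from the effect of the prior count. Near-equal values under both scalings were thus fixed in advance and are no check on scaling. With TMM factors and with library totals the genes called lower on day 10 changed by -0.28 and -0.28 from day 1 to 3, by -0.22 and -0.21 from day 4 to 7 and by 0.18 and 0.16 from day 7 to 8, each in 8 of 8 animals (exact adjusted p = 0.0187 for all 6). The genes called higher changed by 0.28 and 0.28 from day 1 to 3 and by -0.26 and -0.23 from day 14 to 17 (exact adjusted p = 0.0187 for all 4).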

How the data were processed

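The authors deposited gene counts, whole numbers of reads per gene with no normalization, in 2 tables of the same 80 whole-blood libraries, one of 38550 genes under cynomolgus identifiers and one of 35432 under other identifiers. Per the labels' protocols, RNA came from the RNAdvance Blood kit and libraries from KAPA HyperPrep mRNA reagents. Which aligner, counter, build and strand setting were used is not given in the sources used here, so reads shared by near-identical or overlapping genes could not be traced.

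Genes were filtered with edgeR's filterByExpr by day over all 80 libraries, which kept 16054 (41.6%). Day pairs were fitted on their 16 libraries with edgeR 4.0.16 (glmQLFit, glmQLFTest, TMM factors, animal as a block) in R 4.3.3. DESeq2 1.42.0 and limma 3.58.1 (voom with sample weights) were alternatives. A prior count of 2 was added for log2 CPM. Standard errors (SE) of edgeR changes were worked back from the test and not estimated by the fit. Each is the size of the log2 fold change over the square root of the F statistic. Single values were tested by exact sign-flip permutation over 8 animals, whose smallest two-sided p is 0.00781. The edgeR procedure was tested on simulated data.

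Animal numbers in the labels pair the libraries. Deviations of a library from its day's mean correlated between days 0 and 10 at a median r of 0.43 over genes within animals (lowest 0.38) and -0.08 between animals. No libraries of a day agreed within counting noise (smallest chi-square per degree of freedom 29.9). The libraries, tests, gene lists and alternatives were chosen with earlier results of these data known. Named identifiers were the 2 largest and 2 smallest log2 fold changes among 1906 genes called, with a mean of at least 2 log2 CPM and 1 direction in all 8 animals. The rule's version with gene symbols, its pathway lists and the cell type markers could not be applied without names. The thinned counts, the 3 males alone, the run term for day 14 and the values relative to all genes were added after seeing the data.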

Additional observations from a re-analysis of the deposited data

Results flagged for a closer look

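Of 26 sets of 8 values examined, 2 held a value whose gap to the next was large for the whole range (Dixon's criterion), where chance gives about 1 in 20. The day 0 library of animal 39090 held 30.3 M counts, and the next 24.9 M, with a gap of 0.61 of the range. In animal 39097 the 10 most abundant genes took 11.4% of counts on day 10, and the next animal had 8.21%, also a gap of 0.61 of the range. Changes from day 0 also differed between days. Day 10 and day 3 differed in 169 genes, and day 10 and day 14 in 302.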

How the results depend on the processing

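Of the comparisons with day 0, the count of 3546 stayed within 1.5 times in 19 of 23 alternatives. It was 1987 with no replicate block, 544 in the 4 animals whose libraries all held under 40 M counts, 230 in the 3 animals of the other run tag, 703 with a 2-fold minimum, and 2645 to 3244 without 1 animal. All but the first had fewer animals or a further criterion. For the first, and for the differences given next, the cause was not tested. Day 10 against day 3 gave 112 calls with library totals, 953 with DESeq2, 620 with limma voom, 318 with no low-count filter, 32 with no replicate block, 9 without libraries over 40 M and 39 to 255 without 1 animal. Day 10 against day 7 gave 139 with DESeq2, 23 with limma voom, 131 with no filter, 189 within the shared tags and 0 to 62 without 1 animal. Day 10 against day 14 gave 643 with library totals, 1855 with DESeq2, 1043 with limma voom, 603 with no filter, 98 with no replicate block, 2165 with one fit over 80 libraries, 0 without libraries over 40 M, 508 with a run term and 32 to 696 without 1 animal. Its fit within the shared tags could not be run, since all 8 animals changed run. The test by sex called 1 gene with DESeq2 and 0 without 1 animal, and that by run tag 36 with DESeq2, 16 with limma voom, 32 with no filter and 0 to 15 without 1 animal.

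The median log2 change of all genes was -0.042 with library totals, -0.032 with upper-quartile factors and -0.007 to 0.01 without 1 animal. The distance between days 0 and 10 was 1.06 with a prior count of 0.5, 0.65 with a stricter filter, and 0.84 to 0.86 without 1 animal. Shares were also taken without 1 animal, with the genes called anew each time. The gain of genes called higher was then 4.81 to 6.91 percentage points, and the change of those called lower -5.18 to -3.37. These sets held 1530 to 1869 and 1115 to 1460 genes, against 2025 and 1521, so the number of genes summed changed too. For the 10 most abundant genes, kept the same, the gain was 0.938 to 1.42 without 1 animal.

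Steps between other days depended on scaling. With library totals the genes called higher changed by -0.2 from day 3 to 4 and by -0.45 from day 7 to 8, both now past the threshold, and by 0.14 from day 14 to 17, with the opposite sign. The genes called lower changed by -0.15 from day 3 to 4, 0.03 from day 4 to 7 and -0.21 from day 7 to 8, all with the opposite sign, and by 0.46 from day 14 to 17, past the threshold. With upper-quartile factors the genes called higher changed by -0.07 from day 3 to 4 and -0.17 from day 7 to 8, both now past the threshold (exact adjusted p = 0.0156). Those called lower changed by -0.02 from day 3 to 4, with the opposite sign, by 0.07 from day 7 to 8, no longer past the threshold (exact adjusted p = 0.0521), and by 0.17 from day 14 to 17, now past it (exact adjusted p = 0.0469). Relative to all genes the step of the genes called higher from day 4 to 7 was 0.07 with TMM and 0.09 with library totals, under the threshold. The steps were also taken without 1 animal, with the genes called anew each time. In order of day the 6 steps then ran from 0.26 to 0.35, -0.07 to 0.02, 0.1 to 0.18, -0.14 to -0.01, -0.33 to -0.17 and -0.08 to -0.03 for genes called higher. For genes called lower they ran from -0.32 to -0.24, -0.04 to 0.08, -0.23 to -0.12, 0.09 to 0.27, -0.03 to 0.2 and -0.02 to 0.03. The signs of the step from day 3 to 4 turned without 39100 for genes called higher (0.02), and without 39095 (-0.02) or 39100 (-0.04) for genes called lower, and that of the step from day 14 to 17 without 39097 (-0.03) for genes called lower.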

Other observations

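The distance of a library from the day 0 library of the same animal, the root mean square log2 difference over 16054 genes, was 0.75 to 0.92 on day 10 (mean 0.85 ± 0.05, SD, n = 8). Animal 39090 was nearest and animal 39095 farthest. The mean on day 1 was 0.71, on day 8 it was 0.94 and on day 14 it was 1.06. The difference of 1 animal correlated with the mean of the other 7 at r = 0.32 in 39103 and 0.56 in 39090 over the 16054 genes, which are not independent and share the libraries' depth.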
